A study of Homo sapiens with 12 samples.

Results

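A set of 32 genes known as targets of the transcription factor p53 was followed in the prostate cancer lines VCaP-T and VCaP-CT when testosterone (T) was lowered or raised. SESN1, CCNG2, BTG2, PLK2, BBC3 and TP53INP1 rose when T was withdrawn from VCaP-T and fell when T was given to VCaP-CT, whereas the p53 inhibitor MDM2 and the repair gene DDB2 differed between the lines and passed no test on T. The genes were taken from a list by symbol and matched to the Ensembl identifiers of the count files, and all 32 of 32 were found among 58381 genes. By role, 8 restrain growth or the cell cycle (CDKN1A, SFN, GADD45A, BTG2, CCNG1, CCNG2, PLK2, PLK3), 2 act back on p53 (MDM2, PPM1D) and 4 serve DNA repair or the supply of nucleotides (XPC, DDB2, RRM2B, POLK). A further 9 promote cell death (BBC3, BAX, PMAIP1, FAS, TNFRSF10B, PERP, AEN, PHLDA3, TP53INP1), 5 are sestrins or enzymes of redox and energy metabolism (SESN1, SESN2, TIGAR, FDXR, TP53I3), and 4 are other targets (GDF15, ZMAT3, TRIAP1, RPS27L). PHLDA3 had only 0 to 8.64 normalised read counts and did not pass the filter on low counts, so 31 members were tested.

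VCaP is an androgen-sensitive line of human prostate cancer cells. VCaP-T was derived from it by long culture with 10 nM T, and VCaP-CT was then derived from VCaP-T by culture with 0.1 nM T, so that each line is a single derivation with no sister line. Both had been cultured for 20 months and were used at passage 84 (VCaP-T) and passage 73 (VCaP-CT), in RPMI medium with charcoal-stripped serum. There were 12 poly(A) RNA libraries in 4 groups of 3. VCaP-T was taken from its maintenance medium with 10 nM T or after 48 h in 0.1 nM T (depletion), and VCaP-CT from its maintenance medium with 0.1 nM T or after 48 h in 10 nM T (rechallenge). The libraries held 30.2 to 40.8 M counted fragments. That the replicates were separate cultures is not stated, and p-values then reflect only how far these libraries varied, which may be technical. In bulk RNA, fewer cells that express a gene and less of its RNA per cell cannot be told apart.

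The p53 protein is a tetramer that binds DNA as a sequence-specific activator after DNA damage and other stress. Its targets stop the cell cycle, repair DNA, promote apoptosis and adjust metabolism, and MDM2 marks p53 for degradation, which closes a feedback loop. Most of these genes also answer to other transcription factors, so that their levels are not a readout of p53 alone. Some of them, for example, are also known targets of FOXO factors, whose part in the values here was not tested.

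The sequences in which p53 could bind near the start of these genes are shown first, because 7 members have one. RefSeq promoter windows (GRCh38.p14, 250 bases before to 50 after the start, window length 300) matched 27 of the 32 members. The p53 consensus decamer, of 10 letters and searched on both strands, was in at least 1 window of 7 of these 27 genes, and in those of 8.06% of all 27305 genes with a window. A pair of decamers 0 to 13 bases apart was in 1 member, DDB2, and in 0.0366% of all genes. The following stretches of 30 bases are read 5′ to 3′ on the strand of the gene, with the decamers in capitals.
SESN1: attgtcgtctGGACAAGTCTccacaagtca
PLK2: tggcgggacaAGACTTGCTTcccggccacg
FDXR: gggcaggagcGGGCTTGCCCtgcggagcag
AEN: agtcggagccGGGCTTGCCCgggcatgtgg
DDB2: ggtttGAACAAGCCCtGGGCATGTTTggcg
FAS: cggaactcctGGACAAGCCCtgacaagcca
RPS27L: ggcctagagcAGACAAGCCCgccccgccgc

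The stretch of SESN1 lies at chr6:109009018-109009047 on the minus strand and that of PLK2 at chr5:58460199-58460228, also on the minus strand. That of FDXR lies at chr17:74872986-74873015 on the minus strand, that of AEN at chr15:88621296-88621325 on the plus strand and that of DDB2 at chr11:47214974-47215003 on the plus strand. The last 2 lie at chr10:88991299-88991328 on the plus strand (FAS) and at chr15:63157517-63157546 on the minus strand (RPS27L). In Gencode release 28 the decamer of SESN1 is in an intron of the gene and the others are in annotated exons. A match describes the letters of a window and does not show that a factor binds there.

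The identity of the cells was in accord with the labels. All 8 luminal prostate markers, among them KLK3 and KLK2, were present in every group, and their summed level was 505700 to 516600 normalised read counts with 10 nM T and 316100 to 347300 under depletion in VCaP-T, and 331500 to 335600 with 0.1 nM T and 470100 to 493600 under rechallenge in VCaP-CT. The summed fibroblast and smooth muscle markers also moved with T, with 255.3 to 319.5 with 10 nM T and 700.1 to 811.6 under depletion in VCaP-T, and 997.8 to 1108 with 0.1 nM T and 147.5 to 163.7 under rechallenge in VCaP-CT. Of these 6 markers, the collagen gene COL1A2 was at 0 in all libraries with 10 nM T. LUM and COL1A1 rose on depletion, and on rechallenge both fell with PDGFRB. The 4 basal markers moved the other way, with sums of 418.2 to 479.2 and 94.31 to 155.6 in VCaP-T and of 50.17 to 69.31 and 112.2 to 133.4 in VCaP-CT in the same order, and KRT15 and KRT14 fell on depletion and rose on rechallenge. The neuroendocrine sums lay at 2210 to 2878 over all groups, with INSM1 lower on depletion, and INSM1 and SYP higher and ENO2 lower on rechallenge. The endothelial sums were 469.6 to 561.9 in 3 groups and 296.5 to 314.9 in VCaP-CT with 0.1 nM T, with KDR at 0 throughout, PECAM1 higher on depletion and VWF higher on rechallenge. What part these lists have in the values of the p53 targets was not tested. The summed blood cell markers reached at most 28.4, with the pan-leukocyte gene PTPRC at 0 in 3 of the 4 groups. Depleted VCaP-T replicate 2 stood apart, with correlations of 0.9621 and 0.9665 with its sisters on a log scale, where all other replicate pairs had 0.9917 to 0.9941. Its deviation from the group fell with exon length over the 19162 genes tested (Spearman's rho -0.34, against -0.08 to 0.09 in libraries of the other groups), and among the tested members it read from 0.79 lower (POLK) to 0.92 higher (TRIAP1) on the log2 scale than the mean of its sisters. Results of the members that rest on this library are therefore also given without it, unlike those of the other gene lists.

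Adjusted p-values come from the quasi-likelihood test of edgeR, adjusted by Benjamini-Hochberg over 19162 genes, and a gene was counted as past the test at 0.01. The stricter fold threshold also asked for a log2 step of more than 1 either way and a gap of more than 13 normalised read counts between the group medians. Normalised read counts are counts scaled to a library of 35.2 M fragments, SE is the standard error of a log2 fold change, and means are given with their SD over the 3 libraries of a group.

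Per kilobase of exon, the most abundant members in VCaP-T at 10 nM T were the cytokine gene GDF15 (76.9 fragments per kilobase and M fragments), CCNG1 (57.6), TRIAP1 (28.7) and PERP (23.2). CDKN1A, which encodes the cyclin-dependent kinase inhibitor p21, had 20.96 and stood at percentile 88.4 of the genes tested. MDM2 had 10.4 and SESN1 5.29. At the lower end were PHLDA3 (0.03), PLK2 (0.31), PLK3 (0.47), BBC3 (0.57) and SFN (0.94), so the killer gene BBC3 was near percentile 25.6 while BAX, with 12.9, was at 81.5.

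Upon depletion of T, 6 of the 31 members rose and 1 fell, against 6.15% of all genes tested that rose and 3.83% that fell. The risers were CCNG2, PLK2 and BTG2 among the growth genes, SESN1 among the sestrins, and BBC3 and TP53INP1 among the death genes. AEN fell. Of the 2 feedback genes, the 4 repair genes and the 4 other targets, 0 of 10 passed edgeR's test, and 0 had an unadjusted p under 0.05. This did not hold without depleted replicate 2, where XPC passed edgeR's test (log2 0.24, adjusted p = 0.00498) and TRIAP1 had an adjusted p of 0.0470. The median log2 fold change of the members was 0.23, with 20 of 31 above 0, and that of all genes was 0.04. These medians were 0.03 and 0.02 without depleted replicate 2. Upon rechallenge of VCaP-CT, 4 members rose (CDKN1A, SFN, AEN, GDF15) and 7 fell (CCNG2, BTG2, PLK2, BBC3, TP53INP1, SESN1, FDXR), against 7.07% and 7.19% of all genes. The median was 0.04 for the members and -0.02 for all genes. The 2 comparisons share no library but were tested in the same model with a shared spread, so their calls are not independent. All 6 members that rose on depletion fell on rechallenge, which is 6 of the 6 and 6 of the 7. Over all genes, 645 did so, 54.8% of those that rose on depletion and 46.8% of those that fell on rechallenge. The groups compared did not overlap for 15 members on depletion (38% of all genes) and for 20 on rechallenge (55.7%). The fold threshold was met on depletion by 4 members, CCNG2, PLK2, SESN1 and BBC3 (3.14% of all genes), and on rechallenge by 5, CCNG2, SESN1, BBC3, SFN and GDF15 (5.14%).

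**Figure D1:**
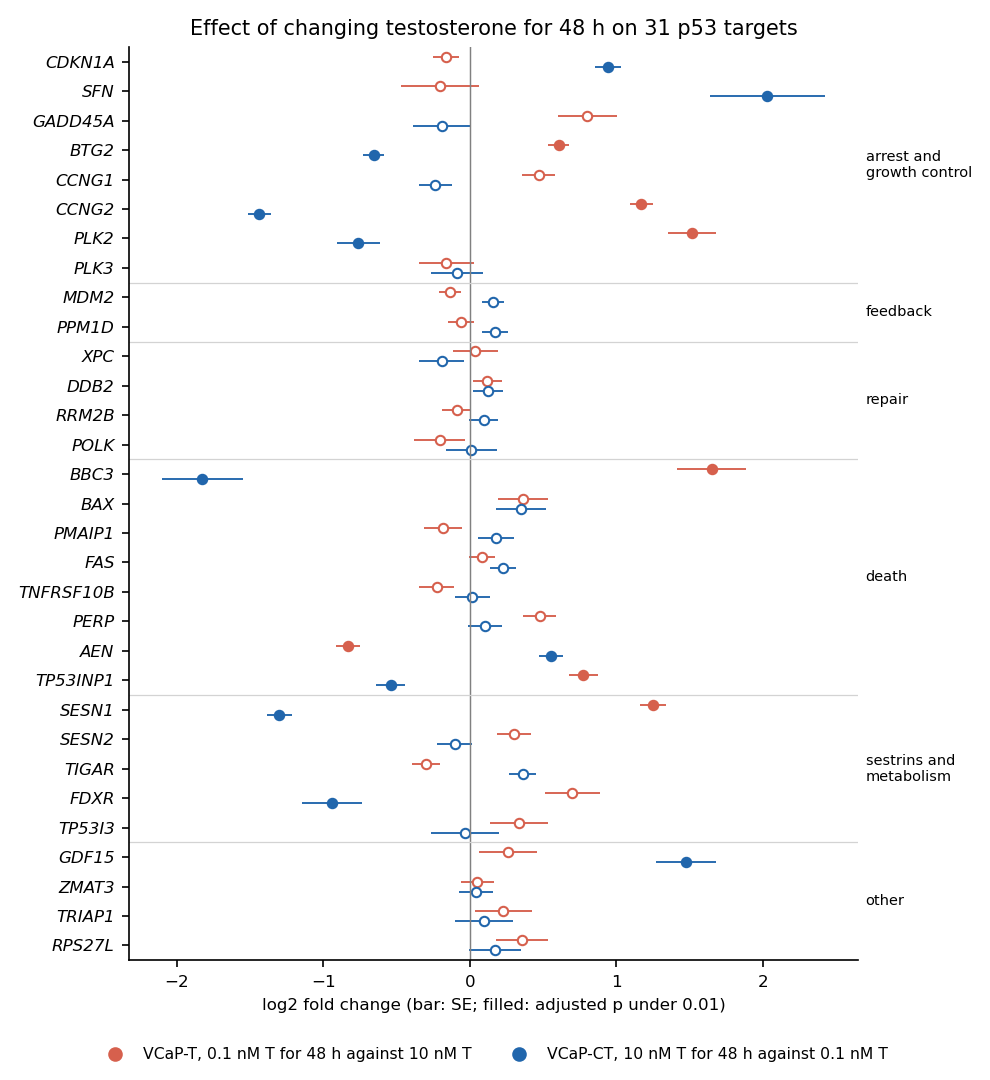
Log2 fold change of the 31 tested members after 48 h of changed testosterone, with the SE as bars and filled points for an adjusted p under 0.01. Red is depletion in VCaP-T (0.1 against 10 nM T) and blue is rechallenge in VCaP-CT (10 against 0.1 nM T). CCNG2, SESN1, BTG2, PLK2, BBC3 and TP53INP1 lie to the right of 0 in red and to the left in blue, and AEN does the reverse.

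CCNG2, an unconventional cyclin linked to cell cycle arrest, was the growth gene with the lowest p on both comparisons. It had 1688, 1745 and 1885 normalised read counts with 10 nM T and 4173, 4084 and 3694 under depletion in VCaP-T, and 5751, 6083 and 6105 with 0.1 nM T and 2176, 2332 and 2120 under rechallenge in VCaP-CT. No library with 0.1 nM T overlapped one with 10 nM T. The log2 fold change was 1.17 on depletion (SE 0.08, adjusted p = 1.84e-06) and -1.44 on rechallenge (SE 0.08, adjusted p = 1.63e-07). BTG2, an antiproliferative gene of early responses, moved the same way with smaller steps, from 1344 ± 53.1 to 2046 ± 106 on depletion (log2 0.61, SE 0.07, adjusted p = 0.000119) and from 1930 ± 83.2 to 1225 ± 9.67 on rechallenge (log2 -0.66, SE 0.07, adjusted p = 3.98e-05).

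PLK2, a polo-like kinase, was far less abundant. It had 56.3, 42.8 and 55.8 counts with 10 nM T and 126.9, 166.7 and 150.6 under depletion in VCaP-T, and 300.4, 299.1 and 351.6 with 0.1 nM T and 214.1, 168.3 and 179.2 under rechallenge in VCaP-CT. Depletion raised it 2.86-fold (log2 1.51, SE 0.16, adjusted p = 7.15e-05), and rechallenge lowered it (log2 -0.76, SE 0.15, adjusted p = 0.00233) to a level still above that of every depleted VCaP-T library. Its relative PLK3 passed in neither, with log2 fold changes of -0.16 and -0.09. GADD45A, a stress sensor, read 225.7 ± 27.9 and 395.5 ± 145 before and after depletion (log2 0.80, adjusted p = 0.0152), and CCNG1 6280 ± 168 and 8690 ± 1605 (log2 0.47, adjusted p = 0.0109). The depleted library that stood apart held the highest value of both genes, 563.1 and 10540.

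**Figure D2:**
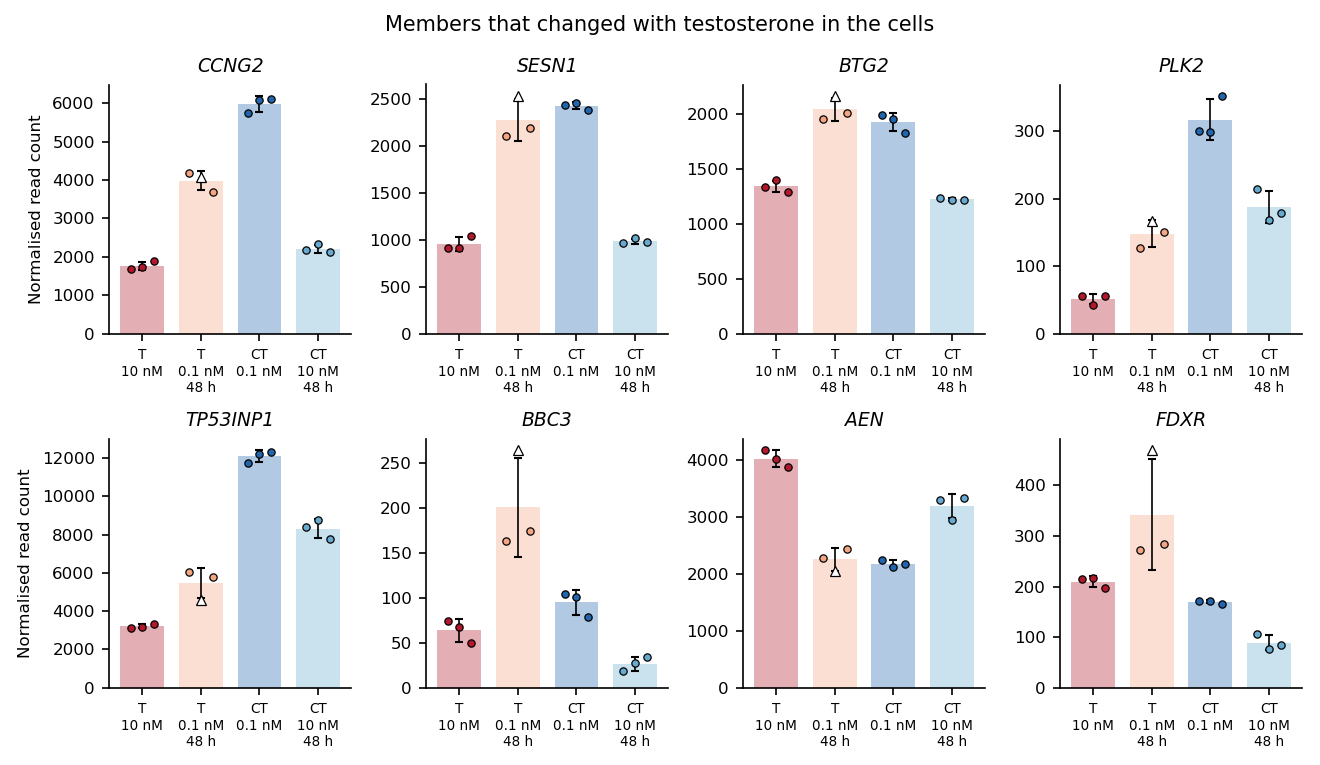
Normalised read counts of 8 members in each library, by line (T, VCaP-T; CT, VCaP-CT) and testosterone level; bars are means, error bars the SD of 3 libraries, and the open triangle is depleted VCaP-T replicate 2. CCNG2, SESN1, BTG2, PLK2, TP53INP1 and BBC3 are higher at 0.1 nM T than at 10 nM T within each line, AEN is lower, and the triangle is the highest depleted value for SESN1, BTG2, PLK2, BBC3 and FDXR.

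The sestrins lie in stress signalling between p53 and mTORC1 and limit oxidative damage. SESN1 had 910.9, 912.7 and 1041 counts with 10 nM T and 2107, 2524 and 2187 under depletion in VCaP-T, and 2434, 2452 and 2383 with 0.1 nM T and 966.0, 1014 and 971.9 under rechallenge in VCaP-CT. Both lines thus read alike at the same T level, and the 2 levels did not overlap. The log2 fold change was 1.25 on depletion (SE 0.09, adjusted p = 2.46e-06) and -1.30 on rechallenge (SE 0.09, adjusted p = 8.47e-07). SESN2 had 161.4, 153.1 and 151.9 counts with 10 nM T and 202.8, 164.2 and 205.2 under depletion in VCaP-T, and 143.8, 160.9 and 153.3 with 0.1 nM T and 141.5, 136.1 and 148.3 under rechallenge in VCaP-CT. The depleted libraries lay above those at 10 nM T, but the difference was not past the test (log2 0.30, SE 0.12, adjusted p = 0.0832), and on rechallenge the groups overlapped (log2 -0.10, adjusted p = 0.579). Of the SESN1 exon bases, 7.1% overlap another gene on the other strand, and since the counting took no account of strand its reads could not be parted there.

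Of the metabolic enzymes, FDXR, the mitochondrial ferredoxin reductase, had 215.5, 217.7 and 196.7 counts with 10 nM T and 272.9, 469.2 and 284.6 under depletion in VCaP-T, and 172.0, 172.3 and 166.3 with 0.1 nM T and 105.8, 75.8 and 85.4 under rechallenge in VCaP-CT. It fell on rechallenge (log2 -0.94, SE 0.21, adjusted p = 0.00577). On depletion the groups did not overlap, with log2 0.70 (SE 0.19, adjusted p = 0.0223). TIGAR, a regulator of glycolysis, ran the other way without passing, at log2 -0.30 on depletion (adjusted p = 0.0401) and 0.36 on rechallenge (adjusted p = 0.0140).

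Of the death genes, BBC3 encodes the BH3-only protein PUMA. In the model of all 12 libraries it showed the largest steps of all members that passed on depletion. Without depleted replicate 2 its step on depletion was log2 1.41 (SE 0.17), and that of PLK2 was log2 1.42 (SE 0.16). BBC3 had 74.3, 67.5 and 49.4 counts with 10 nM T and 163.6, 264.3 and 174.3 under depletion in VCaP-T, and 104.4, 101.3 and 79.1 with 0.1 nM T and 18.5, 27.0 and 34.1 under rechallenge in VCaP-CT. Depletion raised it 3.14-fold (log2 1.65, SE 0.24, adjusted p = 0.000544), and rechallenge lowered it by 1.82 on the log2 scale (log2 -1.82, SE 0.27, adjusted p = 0.000445). TP53INP1, a stress protein of autophagy and death, had 3135, 3154 and 3343 counts with 10 nM T and 6058, 4596 and 5800 under depletion in VCaP-T, and 11740, 12240 and 12310 with 0.1 nM T and 8379, 8786 and 7788 under rechallenge in VCaP-CT. Depletion gave log2 0.77 (SE 0.10, adjusted p = 0.000254) and rechallenge -0.54 (SE 0.10, adjusted p = 0.00179). All libraries of VCaP-CT lay above all those of VCaP-T.

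AEN, a nuclease that enhances apoptosis, was the member that responded in the opposite sense. Its mean was 4022 ± 149 in VCaP-T at 10 nM T and 2255 ± 196 after depletion (log2 -0.83, SE 0.08, adjusted p = 3.28e-05), and 2180 ± 56.3 in VCaP-CT at 0.1 nM T and 3195 ± 211 after rechallenge (log2 0.55, SE 0.08, adjusted p = 0.000415). The other tested death genes passed neither comparison. BAX, the pore-forming effector, had log2 fold changes of 0.37 and 0.35 (adjusted p = 0.145 and 0.169), the BH3-only gene PMAIP1 -0.18 and 0.18, the death receptors FAS 0.08 and 0.23 and TNFRSF10B -0.23 and 0.02, and the desmosomal gene PERP 0.48 (adjusted p = 0.0121) and 0.10.

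CDKN1A, SFN and GDF15 rose on rechallenge and did not pass on depletion. CDKN1A had 2252, 2291 and 2216 counts with 10 nM T and 1888, 2293 and 1851 under depletion in VCaP-T, and 1436, 1439 and 1448 with 0.1 nM T and 2721, 2606 and 2973 under rechallenge in VCaP-CT. In VCaP-CT the levels did not overlap (log2 0.94, SE 0.09, adjusted p = 1.43e-05), and in VCaP-T they did (log2 -0.17, SE 0.09, adjusted p = 0.205). GDF15, a secreted stress cytokine, had 6380, 5826 and 4767 counts with 10 nM T and 5324, 9698 and 5316 under depletion in VCaP-T, and 1057, 1132 and 1021 with 0.1 nM T and 2881, 2872 and 3177 under rechallenge in VCaP-CT. It rose 2.78-fold on rechallenge (log2 1.48, SE 0.21, adjusted p = 0.000261), with log2 0.26 on depletion (adjusted p = 0.370). SFN, the 14-3-3 sigma gene that holds cells before mitosis, was at low counts: 41.4, 40.9 and 48.5 with 10 nM T and 28.4, 55.6 and 31.97 under depletion in VCaP-T, and 4.28, 5.68 and 5.01 with 0.1 nM T and 20.9, 14.6 and 26.7 under rechallenge in VCaP-CT. Its log2 fold change was 2.03 on rechallenge (SE 0.39, adjusted p = 0.00267) and -0.20 on depletion (adjusted p = 0.610).

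Without depleted replicate 2, 12 members rose on depletion (14.4% of all genes) and 2 fell (12.6%). Those added were SESN2 (log2 0.39, adjusted p = 0.00450), GADD45A (0.47), XPC (0.24), CCNG1 (0.30), PERP (0.30) and FDXR (0.41) among the risers and CDKN1A (-0.27, adjusted p = 0.000770) among those that fell, and no member was lost. Without it the residual spread of the shared model was also smaller, so 7 members rose on rechallenge (19% of all genes) and 9 fell (17.6%), with TIGAR, BAX, FAS, CCNG1 and XPC added. Without depleted replicate 1, 10 members rose on depletion (5.92% of all genes). With the libraries of VCaP-T alone in the fit, 3 members and 1.1% of all genes rose on depletion, and BTG2, BBC3 and TP53INP1 did not pass. On rechallenge, FDXR did not pass in 7 of the 12 fits that left out a library (VCaP-T replicates 1 and 2 at 10 nM T, VCaP-CT replicates 1, 2 and 3 at 0.1 nM T, rechallenged VCaP-CT replicates 2 and 3), with an adjusted p of up to 0.0325. SFN did not pass without replicate 1 or 3 of either VCaP-CT group (up to 0.0160), PLK2 not without VCaP-CT at 0.1 nM T replicate 3 or rechallenged replicate 2 or 3 (up to 0.0160), and TP53INP1 not without rechallenged replicate 3 (0.0113), where the count of members that fell was 4 (4.6% of all genes).

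The response to T was next compared between the lines, as the log2 effect of 10 nM against 0.1 nM T in VCaP-T minus that in VCaP-CT. In VCaP-T this effect came from 48 h of withdrawal and in VCaP-CT from 48 h of addition. Line and direction of the T change therefore differ together here and cannot be told apart. For CDKN1A the effect was 0.17 in VCaP-T and 0.94 in VCaP-CT, a difference of -0.78 (SE 0.13, adjusted p = 0.00614). For GDF15 it was -0.26 and 1.48, a difference of -1.74 (SE 0.28, adjusted p = 0.00678). The sign in VCaP-T turned without depleted replicate 2, where GDF15 had a log2 fold change of -0.09 on depletion (adjusted p = 0.425) in place of 0.26. These were the 2 members past the test, both lower in VCaP-T, where 0.804% of all genes were lower and 0.162% higher. With 0 members past the test on the higher side, CCNG2 and AEN were the 2 there at an unadjusted p under 0.05, and the DESeq2 Wald test also gave 0. The remaining 29 lay between -1.83 (SFN, SE 0.48, adjusted p = 0.0716) and 0.28 (AEN). For SESN1 the difference was 0.05 (SE 0.12, adjusted p = 0.857), for BBC3 0.17 (SE 0.36), for MDM2 -0.02 (SE 0.11) and for SESN2 -0.20 (SE 0.16). Without depleted replicate 2 the differences of CDKN1A and GDF15 were -0.67 (adjusted p = 4.78e-06) and -1.39 (adjusted p = 1.37e-07), and PERP, TP53INP1 and BAX passed as well, all 5 lower in VCaP-T (5.62% of all genes, with 1.77% higher). Leaving out any library of the other 3 groups raised the adjusted p of both genes above 0.01, up to 0.0298 for CDKN1A and 0.0290 for GDF15, and 0 members then passed.

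**Figure D3:**
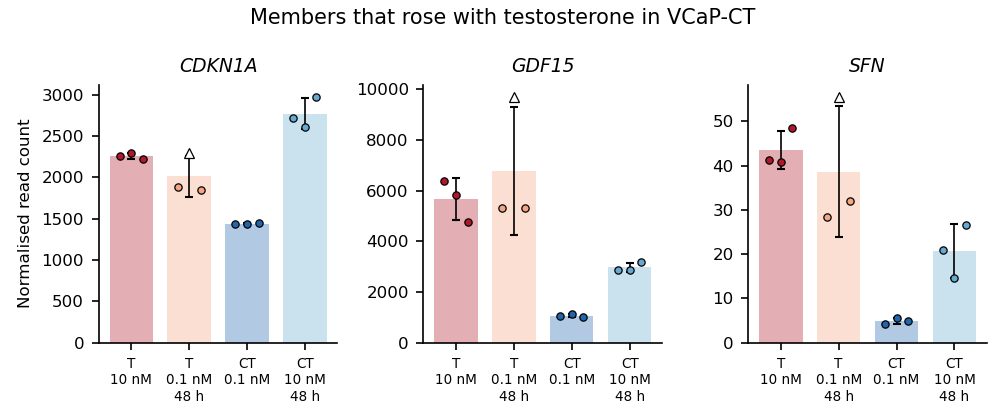
Normalised read counts of CDKN1A, GDF15 and SFN in each library, by line (T, VCaP-T; CT, VCaP-CT) and testosterone level; bars are means, error bars the SD of 3 libraries, and the open triangle is depleted VCaP-T replicate 2. In VCaP-CT each gene is higher at 10 nM T than at 0.1 nM T with no overlap, and in VCaP-T the levels overlap, for CDKN1A and SFN only through depleted replicate 2.

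In their maintenance media, 5 members were higher in VCaP-CT (CCNG2, PLK2, BTG2, TP53INP1, SESN1) and 9 lower (SFN, CDKN1A, MDM2, PPM1D, DDB2, AEN, TNFRSF10B, TP53I3, GDF15), against 14.8% and 15.7% of all genes. Here line and T level differ together and cannot be told apart. PLK2 was 6.13-fold higher (log2 2.62, SE 0.16, adjusted p = 1.08e-07), TP53INP1 3.77-fold and CCNG2 3.37-fold, while SFN (log2 -3.10) and GDF15 (log2 -2.40) were the furthest lower. The groups did not overlap for 26 members, where 69% of all genes did not, and 7 members met the fold threshold (PLK2, TP53INP1, CCNG2, SESN1, SFN, GDF15, TP53I3; 12.7% of all genes). TNFRSF10B did not pass without VCaP-CT at 0.1 nM T replicate 1 or 3 (adjusted p up to 0.0111), and PPM1D did not without replicate 2 or 3 of either group (up to 0.0199). Without depleted replicate 2, which is in neither group, 9 members were higher (26.7%) and 13 lower (26.7%), with BBC3, GADD45A, XPC and PMAIP1 added to the first and BAX, RPS27L, TRIAP1 and ZMAT3 to the second.

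The lines were then set side by side at a matched T level, where one line had been in that medium for 48 h and the other throughout. At 0.1 nM T, 5 members were higher in VCaP-CT (CCNG2, PLK2, TP53INP1, TIGAR, PMAIP1; 13% of all genes) and 12 lower (CDKN1A, SFN, CCNG1, MDM2, PPM1D, DDB2, BBC3, BAX, FDXR, TP53I3, GDF15, RPS27L; 16.4%). At 10 nM T the same 5 were higher (12%), where over all genes 1531 were higher at both levels (61.4% and 66.5% of those higher at each), and 8 lower (MDM2, DDB2, BBC3, TNFRSF10B, AEN, FDXR, TP53I3, GDF15; 13.2%). These comparisons share no library but were tested in the same model with a shared spread, so their calls are not independent. Lower at both levels were TP53I3, DDB2, MDM2, FDXR, GDF15 and BBC3, 6 of the 12 and 6 of the 8, and over all genes 2001 were, 63.5% and 79.2% of those lower at each level. The median log2 difference of the members was -0.33 at 0.1 nM T and -0.13 at 10 nM T, that of all genes -0.02 and 0.00. The members had -0.22 at 0.1 nM T without depleted replicate 2. The groups did not overlap for 24 members at 0.1 nM T (52.3% of all genes) and 26 at 10 nM T (61.7%). The fold threshold was met by PLK2, TP53INP1, TP53I3, FDXR and BBC3 at both levels and by SFN and GDF15 at 0.1 nM T, which makes 7 members at 0.1 nM T (12.3%) and 5 at 10 nM T (10.2%). Without depleted replicate 2, FDXR (log2 -0.71) and BBC3 (-0.82) did not meet it at 0.1 nM T, which left 5.

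**Figure D4:**
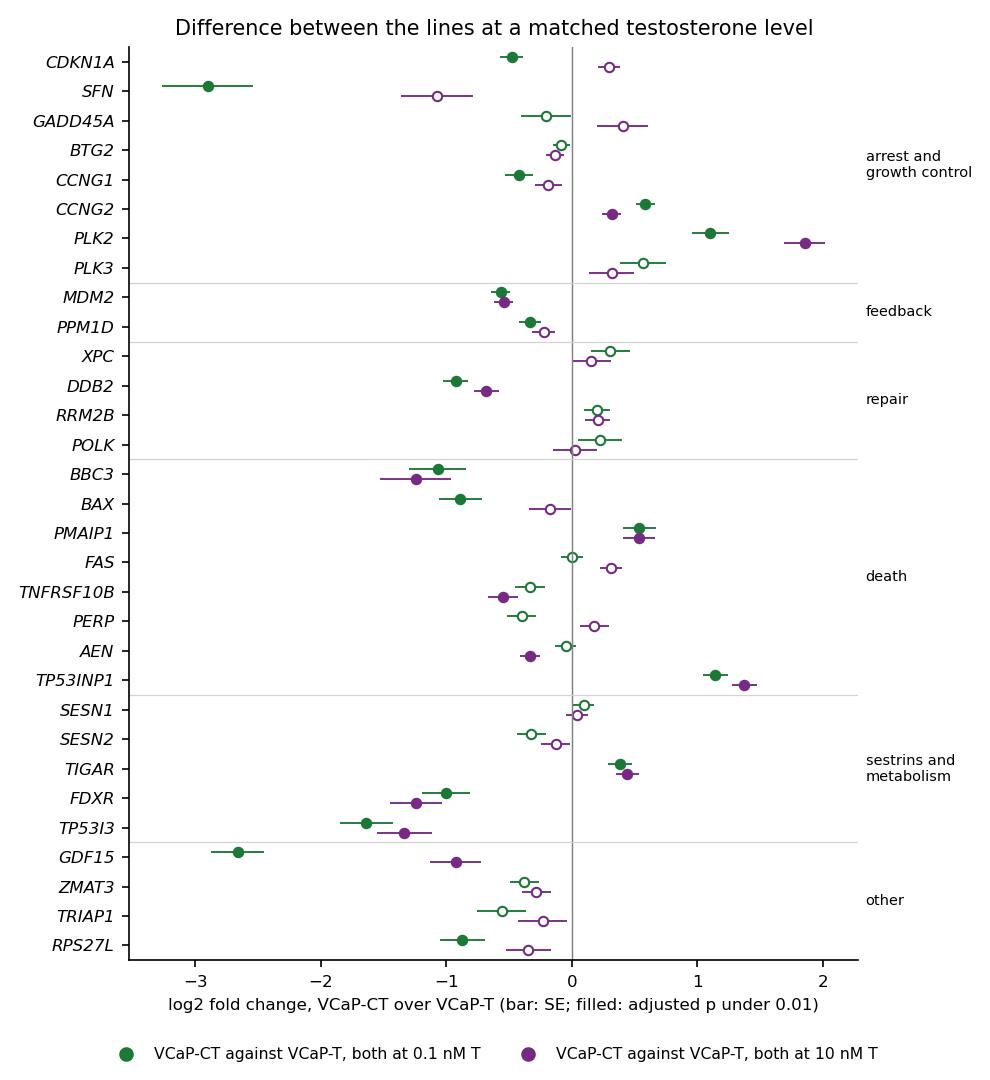
Log2 difference between VCaP-CT and VCaP-T for the 31 tested members at 0.1 nM T (green) and at 10 nM T (purple), with the SE as bars and filled points for an adjusted p under 0.01. Values right of 0 are higher in VCaP-CT. CCNG2, PLK2, TP53INP1, TIGAR and PMAIP1 are filled to the right at both levels, and MDM2, DDB2, BBC3, FDXR, TP53I3 and GDF15 to the left.

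Both feedback genes were lower in VCaP-CT. MDM2, the ubiquitin ligase of p53, had 4699, 4930 and 5003 counts with 10 nM T and 4427, 4511 and 4398 under depletion in VCaP-T, and 2895, 2959 and 3144 with 0.1 nM T and 3517, 3482 and 3035 under rechallenge in VCaP-CT. Every VCaP-CT library lay below every VCaP-T library, with log2 -0.57 at 0.1 nM T (SE 0.08, adjusted p = 7.75e-05) and -0.54 at 10 nM T (SE 0.08, adjusted p = 0.000126). Its log2 fold change on T was small by comparison, -0.13 on depletion (adjusted p = 0.221) and 0.16 on rechallenge (adjusted p = 0.156). Of the MDM2 exon bases, 9.2% overlap other genes. PPM1D, the phosphatase WIP1 that switches p53 signalling off, was lower at 0.1 nM T (log2 -0.33, adjusted p = 0.00956) and not past the test at 10 nM T (log2 -0.23, adjusted p = 0.0669).

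Of the 4 repair genes, DDB2, a damage-recognition factor of nucleotide excision repair, was lower in VCaP-CT. Its mean was 687.2 ± 22.5 with 10 nM T and 747.8 ± 94.5 under depletion in VCaP-T, and 393.8 ± 18.9 with 0.1 nM T and 428.8 ± 26.6 under rechallenge in VCaP-CT, which gave log2 -0.92 at 0.1 nM T (SE 0.10, adjusted p = 1.60e-05) and -0.68 at 10 nM T (SE 0.10, adjusted p = 0.000211). XPC, of the same pathway, the ribonucleotide reductase subunit RRM2B and the polymerase POLK passed in no comparison in the model of all 12 libraries. Their log2 differences between the lines were 0.03 to 0.31 at matched T. Of the XPC exon bases 30.4% overlap other genes, and of the POLK bases 10.8%.

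Of the metabolic enzymes, TP53I3, a quinone oxidoreductase, had 148.6, 144.5 and 162.9 counts with 10 nM T and 164.4, 256.8 and 157.8 under depletion in VCaP-T, and 77.0, 52.1 and 55.1 with 0.1 nM T and 51.7, 61.3 and 67.2 under rechallenge in VCaP-CT. All VCaP-CT libraries were lower, with log2 -1.64 at 0.1 nM T (SE 0.21, adjusted p = 6.73e-05) and -1.33 at 10 nM T (SE 0.22, adjusted p = 0.000445), and T gave no change past the test in either line. FDXR was lower as well, by log2 -1.001 (adjusted p = 0.00121) and -1.24 (adjusted p = 0.000501). TIGAR was higher in VCaP-CT, with log2 0.38 (adjusted p = 0.00585) and 0.44 (adjusted p = 0.00264). SESN1 read alike in both lines at matched T (log2 0.09 and 0.04, adjusted p = 0.404 and 0.732), and SESN2 was not past the test (log2 -0.33 and -0.13, adjusted p = 0.0374 and 0.417).

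The death genes were split between the lines. TP53INP1 was 2.21-fold higher in VCaP-CT at 0.1 nM T (log2 1.14, SE 0.10, adjusted p = 2.67e-06) and 2.59-fold at 10 nM T (log2 1.37, SE 0.10, adjusted p = 6.83e-07). PMAIP1, which encodes NOXA, was higher by log2 0.54 at both levels (adjusted p = 0.00491 and 0.00544). BBC3 was lower, by log2 -1.07 (SE 0.23, adjusted p = 0.00245) and -1.24 (SE 0.28, adjusted p = 0.00419). BAX was lower at 0.1 nM T (log2 -0.89, adjusted p = 0.00127), and TNFRSF10B (log2 -0.55, adjusted p = 0.00318) and AEN (log2 -0.33, adjusted p = 0.00662) at 10 nM T. FAS differed by log2 0.00 and 0.31, and at 10 nM T its adjusted p was 0.0152.

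**Figure D5:**
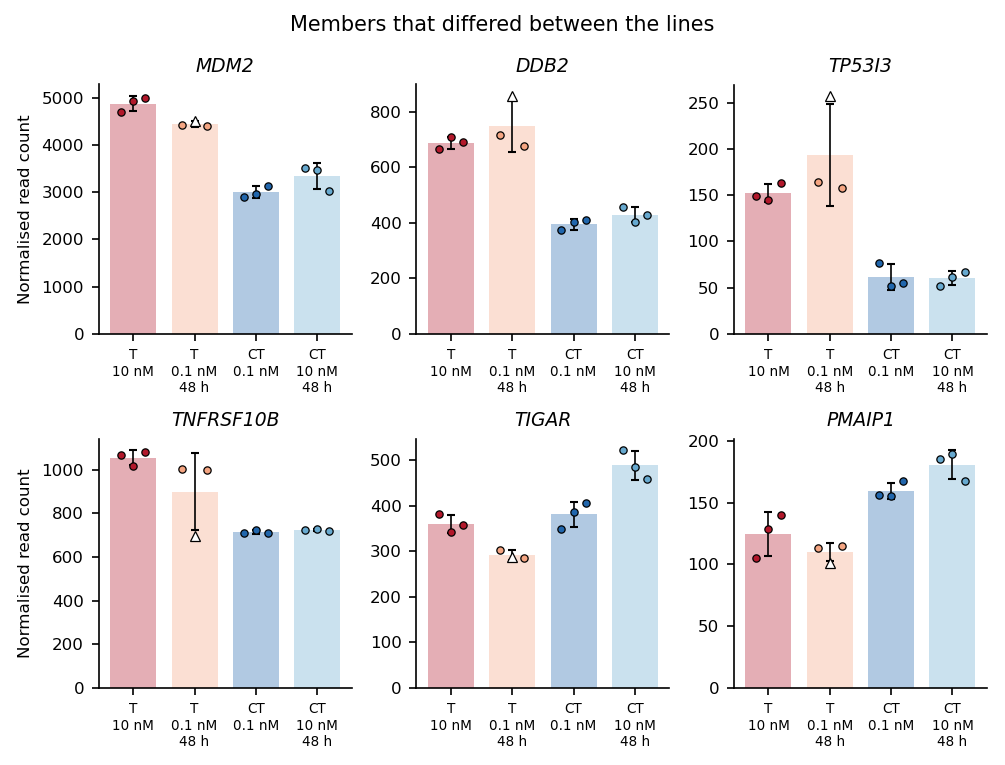
Normalised read counts of 6 members in each library, by line (T, VCaP-T; CT, VCaP-CT) and testosterone level; bars are means, error bars the SD of 3 libraries, and the open triangle is depleted VCaP-T replicate 2. MDM2, DDB2 and TP53I3 are lower in every VCaP-CT library than in every VCaP-T library, and PMAIP1 is higher.

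Among the growth genes, PLK2 was higher in VCaP-CT by log2 1.10 at 0.1 nM T (SE 0.15, adjusted p = 8.11e-05) and 1.86 at 10 nM T (SE 0.16, adjusted p = 3.35e-06), and CCNG2 by 0.59 (adjusted p = 7.15e-05) and 0.32 (adjusted p = 0.00637). CDKN1A was lower in VCaP-CT at 0.1 nM T (log2 -0.48, adjusted p = 0.000973) and had log2 0.30 at 10 nM T (adjusted p = 0.0198). SFN was lower at 0.1 nM T (log2 -2.90, SE 0.36, adjusted p = 4.79e-05), with log2 -1.07 at 10 nM T (adjusted p = 0.0111), and CCNG1 was lower at 0.1 nM T (log2 -0.42, adjusted p = 0.00876). BTG2 did not pass at either level (log2 -0.08 and -0.13). Of the other targets, GDF15 was lower by log2 -2.66 (SE 0.21, adjusted p = 1.20e-06) and -0.93 (SE 0.20, adjusted p = 0.00313). RPS27L, a ribosomal-like protein gene, was lower at 0.1 nM T (log2 -0.87, adjusted p = 0.00198), while ZMAT3 and TRIAP1 passed at neither level.

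Without depleted replicate 2, 6 members were higher in VCaP-CT at 0.1 nM T (23.2% of all genes) and 17 lower (24.4%), with PLK3 added to the first and SESN2, TNFRSF10B, PERP, TRIAP1 and ZMAT3 to the second. At 10 nM T 10 were then higher (24.7%) and 12 lower (23.2%), with CDKN1A, GADD45A, FAS, PERP and RRM2B added to the first and SFN, CCNG1, TRIAP1 and RPS27L to the second. Some calls at 0.1 nM T were lost when a library was left out, also a library of a group not compared. CCNG1 passed only in the fits that left out a depleted VCaP-T library (adjusted p up to 0.0394 in the others), and PPM1D only in those without depleted replicate 2 or rechallenged replicate 3 (up to 0.0465). PMAIP1 did not pass when depleted replicate 1 or 3 or any VCaP-CT library at 0.1 nM T was left out (up to 0.0223), and TIGAR not when depleted replicate 3 or VCaP-CT replicate 2 or 3 at 0.1 nM T was (up to 0.0319). In the fits that lost both, 3 members were higher. BBC3 was lost with VCaP-CT replicate 3 at 0.1 nM T left out (0.0155), and RPS27L with replicate 2 or 3 of that group (up to 0.0108). With only the libraries of the groups compared, 5 members and 9.96% of all genes were lower at 0.1 nM T, and CDKN1A, CCNG1, PPM1D, BBC3, BAX, FDXR and RPS27L did not pass.

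At 10 nM T, AEN passed only in the fits that left out a depleted library (adjusted p up to 0.0358 in the others), and CCNG2 only in those or with VCaP-T replicate 3 at 10 nM T left out (up to 0.0341). GDF15 was lost when VCaP-T replicate 1 or 2 at 10 nM T or any rechallenged library was left out (up to 0.0169), TNFRSF10B with VCaP-T replicate 1 or 3 or any rechallenged one (up to 0.0138), and BBC3 with VCaP-T replicate 1 or 2 or rechallenged replicate 1 or 2 (up to 0.0209). PMAIP1 was lost with those 4 or with VCaP-CT replicate 2 at 0.1 nM T (up to 0.0257), and TIGAR with VCaP-T replicate 2 or 3 or rechallenged replicate 1 (up to 0.0173). The counts at 10 nM T were 2 or 3 members higher and 4 or 5 lower with VCaP-T replicate 1 or 2 or rechallenged replicate 1 or 2 left out, 3 higher without VCaP-CT replicate 2 at 0.1 nM T, and 5 lower without rechallenged replicate 3.

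In the model of all 12 libraries, no comparison took GADD45A, PLK3, XPC, RRM2B, POLK, FAS, PERP, SESN2, ZMAT3 or TRIAP1 past the test. These 10 tested members had log2 values of -0.61 to 0.80 over the 6 comparisons, and their lowest adjusted p was 0.0121 (PERP on depletion). Over all comparisons 64 member differences passed. Of these, 43 did so in each of the 12 fits that left out a library.

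Genes around p53 were counted in the same way, in the model of all 12 libraries only. Over all genes tested, 6.15% rose and 3.83% fell on depletion, and 7.07% and 7.19% on rechallenge. In VCaP-CT, 14.8% were higher and 15.7% lower in maintenance media, and 13% and 16.4% at 0.1 nM T. At 10 nM T these shares were 12% and 13.2%. Of 25 regulators and relatives of p53, 23 were tested. ATR, the kinase of replication stress, fell on depletion (log2 -0.60, adjusted p = 0.00300). It has 12496 exon bases and passed only on depletion and between the lines at 0.1 nM T, which both use depleted replicate 2. The deviation of that library fell with exon length, and what part this has in the values was not tested. On rechallenge CHEK1 rose (log2 0.40) and PPP1R13L fell (log2 -0.54). In maintenance media RCHY1, another ubiquitin ligase of p53, was higher in VCaP-CT (log2 0.43) and CDKN2A (log2 -1.04) and TP73 (log2 -0.59) lower. At 0.1 nM T 3 were higher (RCHY1, ATR, USP7), with CDKN2A among those lower, and at 10 nM T 2 were higher (RCHY1, USP7) and 3 lower (CDKN2A, TP73, PPP1R13L). CDKN2A, the locus of p16 and ARF, was lower at both, by log2 -1.54 (adjusted p = 0.000154) and -1.68 (adjusted p = 0.000131).

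Of 32 further p53 targets, 24 were tested. On depletion 4 rose (6.15% of all genes), led by CMBL (log2 0.81), THBS1 (2.36-fold) and DRAM1 (log2 1.28). ASCC3, with 11731 exon bases, fell (log2 -0.61), and like ATR it passed only on depletion and at 0.1 nM T. On rechallenge CMBL (log2 -1.27, adjusted p = 2.36e-07) and THBS1 (log2 -0.79) fell and RNF19B rose (log2 0.37). CMBL, a hydrolase, and THBS1, which encodes the matrix protein thrombospondin, thus moved with T in the same sense as SESN1. In maintenance media 4 were higher in VCaP-CT (14.8% of all genes), led by CMBL, ANKRA2 and DRAM1. Another 4 were lower (15.7%), led by TP53AIP1, THBS1 and PRKAB1. At 0.1 nM T 4 were higher (13% of all genes), led by NOTCH1, ASCC3 and CES2. Another 6 were lower (16.4%), led by THBS1, TP53AIP1 and RNF19B. At 10 nM T ANKRA2 was higher (12% of all genes) and 4 were lower (13.2%), led by CMBL, THBS1 and TP53AIP1.

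Of 20 cell cycle genes that are known to be lowered through p21 and the DREAM complex, all were tested. On depletion CDC25C rose (log2 0.42) and CCNE2 (log2 -0.76), KIF23 (log2 -0.37) and MYBL2 (log2 -0.39) fell, with a median of -0.26 over the list. On rechallenge, where CDKN1A rose, RRM2 (log2 0.84, adjusted p = 6.97e-05), MYBL2 (log2 0.41) and CHEK1 rose too, CDC25C had log2 -0.32 (adjusted p = 0.0196), and the median was 0.18. In maintenance media CDC25C, PLK1 and CCNA2 were higher in VCaP-CT (14.8% of all genes), and 4 were lower (15.7%), led by RRM2, MCM5 and CCNE2. At 0.1 nM T 6 were higher (13% of all genes), led by CDC25C, PLK1 and CCNA2, and RRM2 and AURKB were lower (16.4%). At 10 nM T 5 were higher (12% of all genes), led by the same 3, and RRM2 was lower (log2 -0.67), where 13.2% of all genes were.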

How the data were processed

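Poly(A) RNA of 12 libraries was analyzed as 4 groups of 3, taken from the sample labels. The authors prepared stranded TruSeq libraries for paired-end HiSeq sequencing. Reads were aligned by STAR 2.5.4b (GRCh38), and featureCounts 1.6.2 assigned fragments to the exons in Gencode release 28, per the file headers without use of strand. The deposited counts are whole fragments per gene, and the authors' table of normalized values was not used. The counts were tested in R 4.3.3 with edgeR 4.0.16 (TMM scaling, default filter on low counts, quasi-likelihood test, 1 model of the 4 groups with no block, Benjamini-Hochberg adjustment over 19162 genes). The threshold of 0.01 and the fold threshold were those of the study's methods. The libraries held 30.2 to 40.8 M counts, and this depth limits PHLDA3 and SFN. The scripts were tested on simulated counts for the depletion comparison. Of the genes changed there, 10 of 67 at 1.5-fold, 48 of 67 at 2-fold and 62 of 66 at 4-fold were recovered. A member that did not pass may therefore still have changed, also by 2-fold. Alternatives were DESeq2 1.42.0 size factors and Wald test, no filter, a replicate block, the libraries of the groups compared alone, and each library left out. Replicate numbers were not taken to pair the libraries, though the check of their deviations cannot exclude a pairing. The members and gene lists, chosen with earlier results of these data known, were all accounted for. Members past the test in a comparison were named, those past the fold threshold and CDKN1A, MDM2, BBC3, SESN1 and SESN2 were given in every library, and of other lists the 3 genes with the lowest p in each direction were named. Some results of the gene lists are not reported here.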

Additional observations from a re-analysis of the deposited data

Results flagged for a closer look

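The response to T differed between the lines for 2 members by the test of the difference itself. T was withdrawn from VCaP-T and added to VCaP-CT, so line and direction of the T change cannot be told apart in this test. CDKN1A, the p21 gene, differed by -0.776 on the log2 scale (VCaP-T minus VCaP-CT), with non-overlapping levels at 10 nM and 0.1 nM T in VCaP-CT and overlapping ones in VCaP-T. That overlap came from depleted replicate 2 alone, and without it CDKN1A fell on depletion (log2 -0.27, adjusted p = 0.000770 by edgeR). GDF15, the stress cytokine gene, differed by -1.736, and its depleted VCaP-T libraries ranged from 5316 to 9698 normalised read counts, the highest being that of the library that stood apart. Without that library GDF15 had a log2 fold change of -0.09 on depletion in place of 0.26. Neither difference passed in the fits that left out a library of any group other than depleted VCaP-T.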

How the results depend on the processing

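No member difference past the test changed direction under the 17 alternatives, and 37 of 64 passed under all of them. DESeq2 size factors and the DESeq2 Wald test kept all 64. Without a filter on low counts, 10 members rose on depletion (3.39% of all genes), and 3 (7.19%) and 2 (6.08%) were higher in VCaP-CT at 0.1 and 10 nM T. With only the libraries of the groups compared, 3 rose on depletion (1.1% of all genes), 7 rose on rechallenge (19.7%), 14 were lower in VCaP-CT in maintenance media (29.5%), 3 were higher (6%) and 5 lower (9.96%) at 0.1 nM T, and 8 were higher at 10 nM T (23.1%). Of 18 same-numbered pairs of libraries, 0 had deviations correlated above 0.1 (-0.16 to 0.05), so the numbers were not taken as pairs. With a replicate block, 3 members were higher in VCaP-CT at 0.1 nM T (11.2% of all genes) and 3 at 10 nM T (10.3%), 0 differed in response, and 9 of 64 calls were lost.

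Leaving out each library in turn gave 6 to 12 members that rose (2.96% to 14.4% of all genes) and 1 to 2 that fell (1.65% to 12.6%) on depletion, and 3 to 7 that rose (4.07% to 19%) and 4 to 9 that fell (4.27% to 17.6%) on rechallenge. In maintenance media 5 to 9 were higher (10.4% to 26.7%) and 7 to 13 lower (11.4% to 26.7%) in VCaP-CT. At 0.1 nM T 3 to 6 were higher (8.94% to 23.2%) and 8 to 17 lower (12.3% to 24.4%), and at 10 nM T 2 to 10 (7.73% to 24.7%) and 4 to 12 (9.74% to 23.2%). Between 0 and 5 were lower in VCaP-T in the difference in response (0.295% to 5.62%). The cause was not tested.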
